A study of Mus musculus with 2 samples.

Results

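The 10 genes described here encode the lecticans *Vcan*, *Bcan*, *Ncan* and *Acan*, the link proteins *Hapln1*, *Hapln2* and *Hapln4*, the tenascins *Tnr* and *Tnc*, and the hyaluronan synthase *Has2*. They were taken by name from the 19465 genes of the count tables, where each had probes in both sections. The study has 1 condition with 2 replicates, a 5 µm section of formalin-fixed mouse cerebellum each (sections 1 and 2), from mice that received tumor organoids in the cerebellum and no treatment. The HP organoids came from mammary tumors of mice with HER2 V777L and PIK3CA H1047R alleles switched on by Cre. The sample titles read HP-F1 for section 1 and HP-B6 for section 2, other fields of both give a B6-HP organoid, and donor and host were mice of the same C57BL/6J background. The Visium CytAssist assay was used, in which probe pairs are captured on barcoded spots and counted as unique molecular identifiers (UMIs). A spot can hold several cells, so that more cells of a type and more RNA per cell cannot be told apart. The section was the replicate, and the question was which genes of this family belonged to neural tissue, which to the mass, and how they changed across the border.

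The lecticans are chondroitin sulfate proteoglycans that bind hyaluronan through their head domain and tenascins through their tail. Link proteins clamp that bond, and the hyaluronan itself is spun out at the cell surface by synthases such as Has2. In the mature brain these parts form perineuronal nets around neurons, in which aggrecan (*Acan*), tenascin-R (*Tnr*) and the link proteins Hapln1 and Hapln4 are known components, and the perinodal matrix of myelinated axons, where Hapln2 (Bral1) sits beside versican (*Vcan*). Brevican (*Bcan*) and neurocan (*Ncan*) are brain lecticans, whereas versican and tenascin-C (*Tnc*) are also known from the stroma of many tumors and from wound healing.

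Spots were divided by the share of their UMIs in a list of 31 neuronal and glial genes, none of them a member. Spots with a share under 0.677% in section 1 and 0.573% in section 2 were non-neural, and connected fields of at least 50 such spots made up the mass, with 781 spots in section 1 and 821 in section 2. Spots over 3 array steps inside it were its core (568 and 356 spots), those within 3 steps the mass-side edge (213 and 465), neural spots within 3 steps outside it the brain-side edge (190 and 357), and all other neural spots the far neural region (2335 and 2764). The median neural share was 0.119% and 0.0833% in the mass and 4.28% and 3.30% in the far neural region. A total of 113 and 184 spots lay within 0.5 on the log2 scale of the limit, and small islands of neural spots inside the mass gave rings of edge spots there.

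The masses of the 2 sections differed in their cells. Summed over 10 epithelial genes, the core reached 14709.7 counts per 1000000 UMIs (CPM) in section 2 but 66.0 CPM in section 1, and 10 of 10 genes were higher in section 2. In section 1 the core had *Epcam* at 7.05 CPM and *Krt17* at 0.0346 CPM. Of the 10 epithelial genes, 7 were still higher there than in far neural tissue of section 1. Among them were *Epcam* (3.22 CPM in far neural tissue) and *Erbb2* (16.7 against 4.96 CPM), whereas *Krt17*, *Krt19* and *Cldn7* were lower. At such low levels these markers did not settle the label of a mammary epithelial tumor in section 1, and the word mass is used for both. The 8 fibroblast genes summed to 60599.8 CPM in the core of section 1 and 754 CPM in that of section 2, with 8 of 8 higher in section 1. Macrophage and microglia genes stood at 7860.2 and 1378 CPM. Levels are therefore given by section, and differences are pooled over both sections unless stated.

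**Figure D1:**
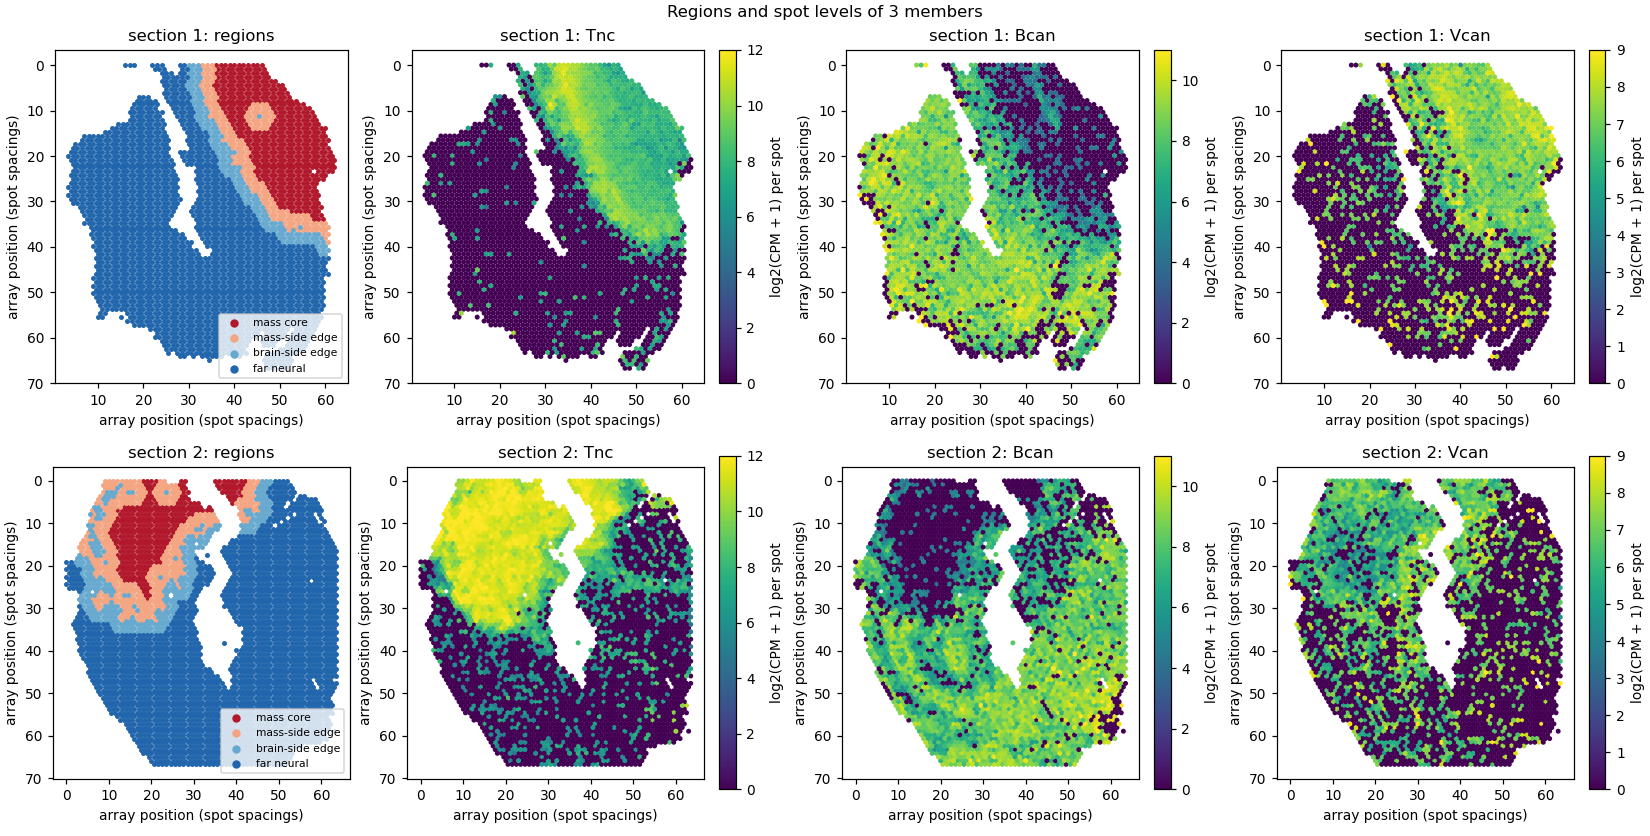
Array maps of section 1 (top) and section 2 (bottom), with axes in spot spacings. The left panels show the 4 regions and the others the level per spot of *Tnc*, *Bcan* and *Vcan* as log2(CPM + 1). *Tnc* fills the mass of both sections, *Bcan* is sparse there and dense in far neural tissue, and *Vcan* is densest in the mass of section 1. *Vcan* was read in 97.9% and 82.0% of core spots of sections 1 and 2, and in 30.1% and 34.7% of far neural spots.

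UMIs were summed by section and region, and the 8 sums entered edgeR's quasi-likelihood test, with a block for the section and Benjamini-Hochberg adjustment over 19176 genes. A member was called at an adjusted p below 0.05. Levels are CPM after scaling by the trimmed mean of M values (TMM), changes are log2 differences with the SE of the fit, and no level is set against that of another gene, since genes have different probes. The sections come from separate mice, and the block takes out the difference in level between them. The p-values thus rest in part on how far the differences between regions disagreed in these 2 animals. The fit also draws the spread of each gene toward a trend over all genes tested. A small p-value is therefore not the agreement of 2 animals in that gene alone. All 4 regions share 1 estimate of the spread per gene, so an SE is not the disagreement within its own comparison. *Hapln4* at the brain-side edge, for example, differed from far neural tissue by -2.72 and -2.66 in the 2 sections, with an SE of 0.940.

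In genome order the family falls into pairs. In the GRCm38.p6 annotation of RefSeq, *Vcan* (chr13:89655309-89743027) lay 43.48 kb from *Hapln1* (chr13:89540529-89611832), *Bcan* (chr3:87987531-88002175) lay 18.38 kb from *Hapln2* (chr3:88020558-88027511), and *Ncan* (chr8:70093085-70120863) lay 2.222 kb from *Hapln4* (chr8:70083529-70090862), with 0 annotated genes between the members of each pair. *Acan* (chr7:79053226-79115099) had the link protein *Hapln3* 1.927 kb away. The tenascins were apart, *Tnr* at chr1:159523729-159931729 and *Tnc* at chr4:63959785-64047015, as was *Has2* at chr15:56665627-56694546.

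The upstream sequences of *Tnc* and *Hapln2* are shown because *Tnc* was higher and *Hapln2* lower in the mass than in neural tissue, each in both sections. Each is the 250 bases before the RefSeq start, 5′ to 3′ on the strand of the gene, from GRCm38.p6: *Tnc* chr4:64047016-64047265 on the minus strand and *Hapln2* chr3:88027512-88027761 on the minus strand. Capitals mark matches to the GC box letters GGGCGG and the TATA box letters TATAAA on either strand.
Tnc: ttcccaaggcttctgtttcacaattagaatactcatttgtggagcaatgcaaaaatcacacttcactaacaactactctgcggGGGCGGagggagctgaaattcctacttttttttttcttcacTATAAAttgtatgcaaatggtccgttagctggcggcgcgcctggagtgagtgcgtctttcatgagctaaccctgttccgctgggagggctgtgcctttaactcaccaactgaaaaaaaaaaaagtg
Hapln2: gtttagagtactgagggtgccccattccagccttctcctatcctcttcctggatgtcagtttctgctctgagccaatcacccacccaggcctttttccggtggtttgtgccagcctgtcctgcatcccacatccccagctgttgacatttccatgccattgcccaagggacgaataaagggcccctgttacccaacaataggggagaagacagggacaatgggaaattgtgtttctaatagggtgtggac
The *Tnc* stretch held 1 GC box and 1 TATA box, and so did that of *Ncan*, which was lower in the mass. *Bcan* had 1 GC box, *Vcan* 2 and *Acan* 3, with no TATA box, and *Hapln1*, *Hapln2* and *Tnr* had neither motif. Over all 32851 promoter windows of that length, 32.74% held a GC box and 12.37% a TATA box. The AP-1 letters TGANTCA, present in 6.749% of all windows, were in none of the 9 windows available for 8 members. The TEAD letters GGAATG, in 12.64% of all windows, had 1 match each in *Acan* and *Hapln2*. The SOX letters ACAAAG, in 16.46%, had 1 match in *Tnr*. Matches to these letters are not in capitals above.

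In the mass core against the far neural region, the members split into a brain matrix and a mass matrix. *Tnc* and *Has2* were higher in the core, whereas *Bcan*, *Hapln2*, *Hapln4*, *Tnr* and *Ncan* were lower. *Vcan* was higher in both sections without passing the test, and *Acan* and *Hapln1* took opposite directions in the 2 sections. The 7 members called of 10 stand beside 34.3% of all genes tested, with 2 higher beside 16.2% and 5 lower beside 18.1%. The median log2 difference of the members was -1.58, against -0.15 over all genes tested.

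**Figure D2:**
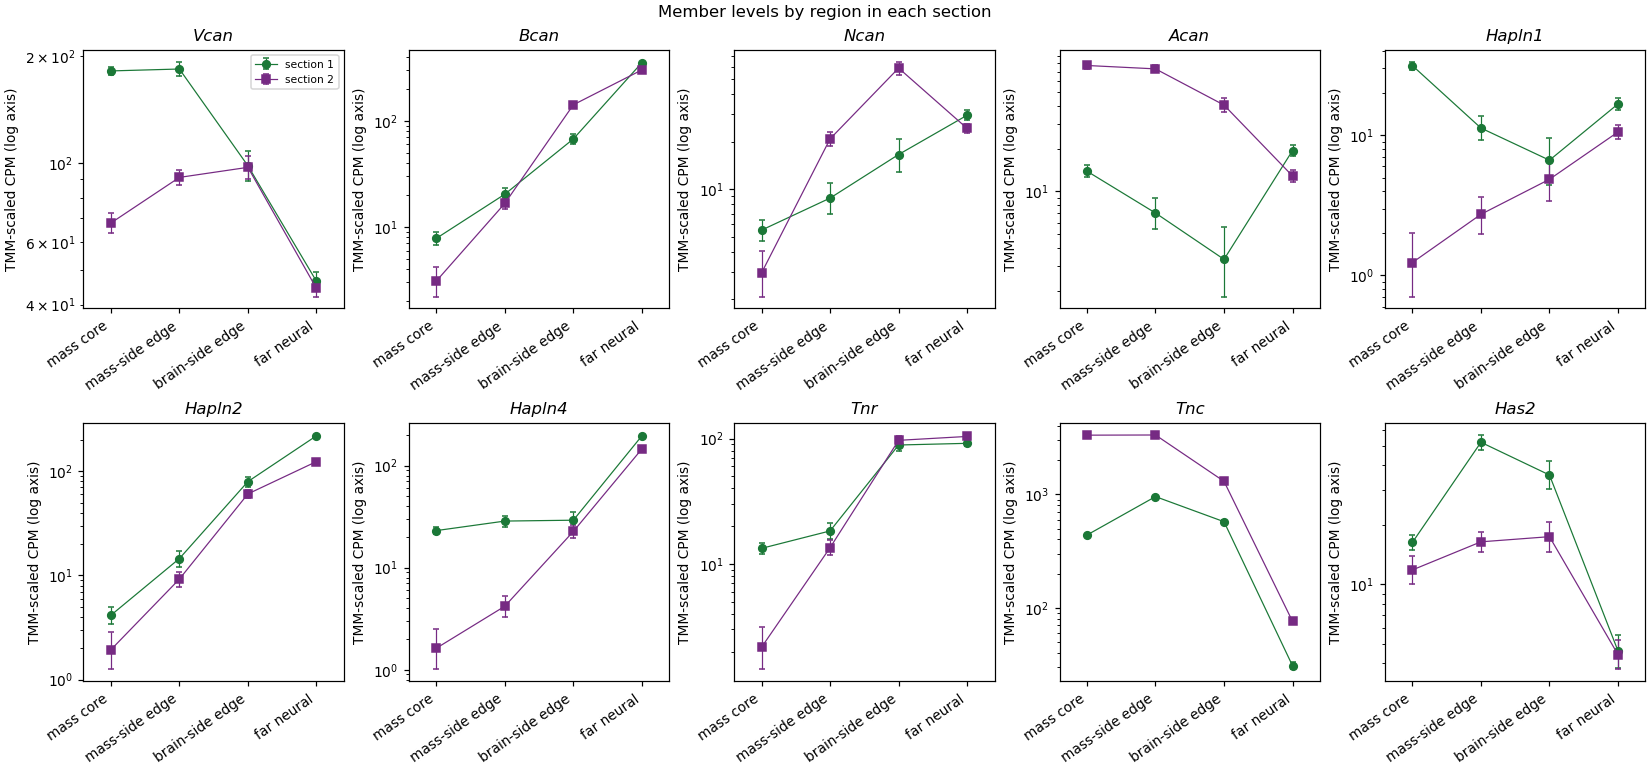
Levels of the 10 members as TMM-scaled CPM (log axes) in mass core, mass-side edge, brain-side edge and far neural region, with a line per section and 95% counting intervals. *Tnc* and *Has2* lie above far neural in every mass and edge library, *Bcan*, *Hapln2* and *Hapln4* lie below it, and the lines of *Acan* and *Hapln1* part between sections.

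Among the lecticans, *Bcan* stood at 7.81 CPM in the core of section 1 and 3.09 CPM in that of section 2, against 354 and 303 CPM in far neural tissue. The core held 2.20% and 1.02% of the far neural level, and the log2 difference was -5.92 (SE 0.652, edgeR adjusted p = 0.0036). *Ncan* was at 5.50 and 2.94 CPM in the core and 29.5 and 24.3 CPM in far neural tissue. Its fall was smaller, -2.61 (SE 0.730, adjusted p = 0.045), and 18.6% and 12.1% of the far neural level remained. *Vcan* went up instead, from 46.5 and 44.4 CPM in far neural tissue to 182 and 67.8 CPM in the core. The size of the rise differed, 3.90-fold in section 1 and 1.53-fold in section 2, and the difference of 1.32 (SE 0.409) had an edgeR adjusted p of 0.060. DESeq2 called *Vcan*, at 1.44, but it called more genes in this comparison, 8094 against 6575 by edgeR. With edgeR *Vcan* was called with RLE factors (1.44, adjusted p = 0.042) and with a mask from neuron genes (1.54, adjusted p = 0.045). It was also called with the first step beside the border left out (1.35, adjusted p = 0.048), and stayed uncalled in the other edgeR settings.

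*Acan*, the aggrecan of cartilage and of perineuronal nets, went against its brain role in section 2. There it stood at 77.2 CPM in the core and 12.8 CPM in far neural tissue, whereas section 1 had 13.9 and 19.4 CPM. The pooled difference of 0.45 had an SE of 1.04 and an adjusted p of 0.75. In section 2 it was read in 84.0% of core spots and was not the product of a few of them, since the 10% of spots with the most held 30.4% of its UMIs.

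Among the link proteins, *Hapln2* and *Hapln4* were low in the core. *Hapln2* stood at 4.15 and 1.93 CPM there and at 219 and 124 CPM in far neural tissue, a difference of -5.83 with an SE of 0.253, which gave the lowest adjusted p of the members, 0.0018. *Hapln4* was at 23.1 and 1.62 CPM against 196 and 146 CPM (-4.52, SE 1.05, adjusted p = 0.026). In section 1 the core kept 11.8% of the far neural level of *Hapln4*, against 1.11% in section 2. *Hapln1*, the link protein first known from cartilage, was higher in the core than in far neural tissue of section 1 (31.5 against 16.8 CPM) and lower in section 2 (1.24 against 10.6 CPM), and it was not called (-0.55, adjusted p = 0.70). The core of section 1 thus held 25.4-fold more *Hapln1* and 14.2-fold more *Hapln4* than that of section 2. These ratios are loose, since the core of section 2 held 16 UMIs of *Hapln1* and 21 of *Hapln4*.

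The tenascins went in opposite directions. *Tnr*, a product of oligodendrocytes and some neurons, stood at 13.3 and 2.17 CPM in the core and 91.6 and 104 CPM in far neural tissue (-3.86, SE 0.769, adjusted p = 0.017). *Tnc*, a tenascin of developing and injured tissue, stood at 438 and 3325 CPM in the core and at 30.8 and 75.8 CPM in far neural tissue. The groups were far apart, with a 14.2-fold and a 43.9-fold excess in the core and a difference of 4.73 (SE 0.546, adjusted p = 0.0040). *Tnc* in the core of section 2 was 7.59 times that of section 1. *Has2*, which makes long hyaluronan chains, was at 16.3 and 11.8 CPM in the core and 4.62 and 4.43 CPM in far neural tissue (1.58, SE 0.428, adjusted p = 0.041). Its call was the least stable, being lost when only library size was scaled (1.28), with no section block (1.63), with the largest field of mass alone (1.40), with the first step beside the border left out (1.64) and against neural spots within 10 steps of the mass (0.88). *Hapln4* lost its call without the block (-3.78) and against those near spots (-3.28), where *Ncan* lost it too (-2.43).

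The regions were drawn by neural content, and neural cell lists differed in how much of them the core kept. The 20 neuron genes of the list kept 4.05% and 1.80% of their far neural level in the core, and 7 oligodendrocyte genes kept 2.18% and 1.87%. Astrocyte genes kept 43.3% and 77.2%, oligodendrocyte precursor genes 51.7% and 8.85%, and Bergmann glia genes 42.9% and 2.72%. In the core of section 2 the astrocyte genes summed to 4942 CPM and the Bergmann glia genes to 26.1 CPM. The paper reports that GFAP, a marker of astrocytes and other glia, was absent from these metastases. Which cells of the core carried the astrocyte genes was not tested, so a kept share of a list is not a share of cells. The list that drew the regions holds the 20 neuron genes and 11 glial genes. Their low shares in the core were set by that rule, so they are no yardstick for the members. *Bcan* kept 2.20% and 1.02%, *Hapln2* 1.89% and 1.56%, and *Ncan* 18.6% and 12.1%. *Hapln4* kept 11.8% and 1.11%, and *Tnr* 14.5% and 2.08%. Core spots were also richer in RNA, with a median of 56955.5 and 42236 UMIs against 7537 and 9677 in far neural spots. Per spot and without scaling, the log2 difference of *Bcan* was -3.98, that of *Ncan* -0.70 and that of *Tnc* 6.61.

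At the edges, counted as the mean of both sides, 5 of 10 members were called against far neural tissue, beside 25.8% of all genes. *Tnc* (4.68, SE 0.520, adjusted p = 0.0057) and *Has2* (2.56, SE 0.414, adjusted p = 0.012) were higher, beside 11.7% of genes that rose. *Bcan* (-2.88), *Hapln2* (-2.53) and *Hapln4* (-3.35) were lower, beside 14.1% that fell, with adjusted p of 0.011, 0.0038 and 0.030. *Hapln4* was no longer called without the section block (-3.05), and against neural spots within 10 steps of the mass neither *Hapln4* (-2.11, adjusted p = 0.13) nor *Has2* (1.89, adjusted p = 0.12) was. *Vcan* was 1.30 higher with an adjusted p of 0.056, and *Tnr* was -1.38 with 0.14. At the edges *Vcan* was called by DESeq2 (1.38). It was also called by edgeR with RLE factors (1.38, adjusted p = 0.044) and with a mask from a fixed limit (1.31, adjusted p = 0.045).

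On the brain side alone, where spots still held neural tissue, 3 of 10 members were called, beside 6.51% of all genes. *Tnc* had 574 CPM in section 1 and 1303 CPM in section 2, which is 18.6-fold and 17.2-fold over far neural tissue (4.17, SE 0.528, adjusted p = 0.028). *Has2* had 35.6 and 17.4 CPM, 7.70-fold and 3.93-fold over it (2.42, SE 0.442, adjusted p = 0.045). These 2 rises stand beside 3.67% of genes that rose. *Hapln2* fell to 79.8 and 60.7 CPM, 36.3% and 48.9% of the far neural level (-1.24, SE 0.206, adjusted p = 0.039), beside 2.84% of genes that fell. Brain-side spots were richer in RNA, with a median of 18064 and 19410 UMIs against 7537 and 9677 in far neural spots. Per spot and without scaling *Hapln2* had 1.77 and 1.26 UMIs against 2.22 and 1.42. That log2 difference was -0.25, beside 5.13 for *Tnc* and 3.22 for *Has2*.

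Summed over that strip, *Tnr* was near its far neural level, at 88.8 and 96.7 CPM, or 97.0% and 93.1% of it (-0.080, SE 0.668). Within the strip it rose outward. In CPM of library size it went from 80.1 at step 1 to 147 at step 3 in section 1, and from 70.6 to 138 in section 2. Per spot and without scaling it had 1.97 and 2.01 UMIs, against 0.925 and 1.19 in far neural spots. The neuron genes, part of the list that drew the regions, were down to 21.1% and 29.2% over the strip. Other glial lists were also near their far neural level there, with 93.1% and 92.8% for astrocyte genes and 96.3% and 91.4% for Bergmann glia genes, and oligodendrocyte precursor genes were at 69.0% and 78.2%. Which cells carried these lists, and their part in the level of *Tnr*, were not tested. *Bcan* held 19.1% and 46.9% (-1.61, adjusted p = 0.15) and *Hapln4* 14.9% and 15.6% (-2.71, adjusted p = 0.15). *Vcan* was nearly equal in the sections, 98.3 and 97.3 CPM (1.11, adjusted p = 0.17). *Ncan* parted between them, at 16.6 CPM and 56.3% of far neural tissue in section 1 but 58.8 CPM and 2.42-fold in section 2. *Acan* did too, with 3.32 and 40.6 CPM. *Hapln1* was at 6.65 and 4.86 CPM, below far neural tissue in both.

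The brain-side edge also held transcripts of genes that were high in the mass. In section 1 the fibroblast genes summed to 9394 CPM there against 557 CPM in far neural tissue, with 8 of 8 higher. In section 2 the epithelial genes summed to 3958 CPM against 269.7 CPM, with 10 of 10 higher. Macrophage and microglia genes were at 7405 and 5950.4 CPM against 1536 and 1805 CPM. In section 2 they were lower in the mass, at 2655 CPM in its edge and 1378 CPM in its core. Whether cells of the mass carried these transcripts, and the part of such cells in the rise of *Tnc* and *Has2*, were not tested. The 3 calls were also bound to settings, since 0 of them held without the section block, with the first step left out, or against neural spots within 10 steps of the mass. In that order of settings the difference was 4.14, 3.72 and 2.64 for *Tnc*, 2.54, 1.92 and 1.74 for *Has2*, and -1.29, -0.97 and -0.72 for *Hapln2*.

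Against the mass core, the edges gave 0 calls among the members by edgeR, where 0% of all genes were called, although 5 of 10 members and 3024 of 19176 genes had an unadjusted p below 0.05. DESeq2 called 4 members and 1874 genes. *Hapln2* (3.29, SE 0.216, edgeR adjusted p = 0.066), *Bcan* (3.04, adjusted p = 0.10), *Tnr* (2.48, adjusted p = 0.20) and *Ncan* (2.29, adjusted p = 0.23) were the 4 that DESeq2 called, each higher at the edges in both sections. *Vcan* (-0.012) and *Tnc* (-0.050) lay near 0, with opposite signs in the 2 sections.

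By distance from the border, in CPM of library size, the mass matrix of section 1 was layered. *Tnc* rose from 192 CPM in spots deeper than 12 steps to 955 CPM at step 2 inside, was still 806 CPM at step 1 outside, and fell through 187 CPM at steps 4 to 6 to 21.1 CPM at steps 7 to 10. *Has2* rose from 10.5 CPM in the deepest spots to 56.1 CPM at step 1 inside and 61.6 CPM at step 1 outside, and was down to 6.89 CPM at steps 4 to 6. Both were thus highest at the rim of the mass.

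*Hapln1* and *Acan* ran the opposite way in section 1. *Hapln1* fell from 74.4 CPM in the deepest spots to 6.05 CPM at step 1 inside, and *Acan* from 36.4 to 5.65 CPM. The deepest bin held 93 spots, and the sum of the fibroblast genes was near level from there to step 3 inside, at 57554 and 55926 CPM. It was lower nearer the border, at 50544 CPM at step 2 inside and 40055 CPM at step 1 inside. Single genes differed. From core to mass-side edge *Col1a1* went from 23400 to 22076 CPM, but *Dcn* from 1671 to 641 CPM and *Lum* from 2187 to 1132 CPM. Neural lists were not level, with astrocyte genes at 483 CPM in the deepest spots, 1874 CPM at step 3 inside and 2864 CPM at step 1 inside, and neuron genes at 371, 751 and 1655 CPM. Which cells carried these lists, and their part in the layers, were not tested. *Vcan* showed no such layers there, at 164 to 193 CPM throughout the mass.

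**Figure D3:**
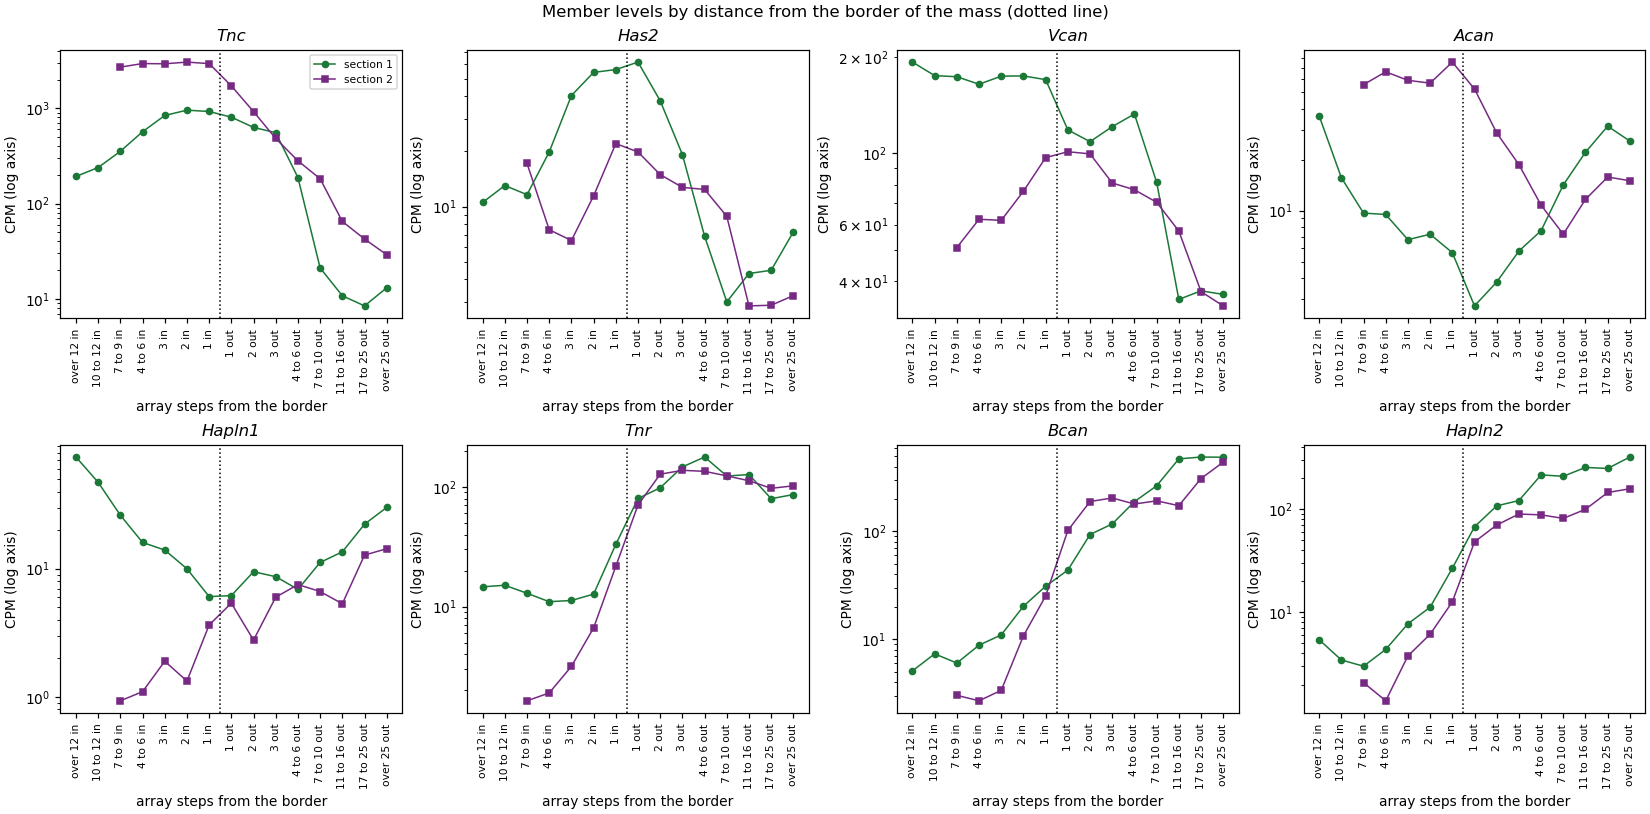
Levels of 8 members in CPM of library size (log axes) by array steps from the border of the mass (dotted line), for bins of at least 20 spots, with a line per section. *Tnc* of section 1 climbs from 192 CPM in the deepest spots to 955 CPM at the rim while *Hapln1* falls from 74.4 to 6.05 CPM, and *Tnr* regains its far neural level within 2 to 3 steps outside while *Bcan* and *Hapln2* rise more slowly.

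In section 2 *Tnc* was even across the mass, at 2704 to 3049 CPM in bins of at least 20 spots, and then fell to 1718 CPM at step 1 outside, 482 CPM at step 3 and 182 CPM at steps 7 to 10. *Vcan* rose outward instead, from 50.9 CPM at steps 7 to 9 inside to 101 CPM at step 1 outside. *Ncan* peaked at the border, with 63.6 CPM at step 1 outside against 2.29 CPM at steps 4 to 6 inside and 20.2 CPM at steps 7 to 10 outside. In section 1 *Ncan* climbed without a peak, from 15.1 CPM at step 1 outside to 40.6 CPM beyond 25 steps.

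Outside the mass the brain members returned at different rates. *Tnr* reached 98.4 CPM in section 1 and 128 CPM in section 2 at step 2, and peaked at 178 CPM at steps 4 to 6 and at 138 CPM at step 3, above the 86.4 and 102 CPM beyond 25 steps. *Bcan* was at 93.7 and 189 CPM at step 2 and at 488 and 439 CPM beyond 25 steps. *Hapln4* was the slowest of the 3, at 38.8 and 26.6 CPM at step 2 and 278 and 199.7 CPM beyond 25 steps. The projection neuron genes, which mark one class of far neural spots, summed to 126 and 223 CPM over the brain-side edge, 5.32% and 12.6% of the 2369 and 1763 CPM of the far neural region, and the part of this mix of cells in the different rates was not tested. Macrophage and microglia genes peaked at step 2 outside in both sections, at 9207 and 6722 CPM.

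To see where the members lie in neural tissue away from the mass, far neural spots took the class of the marker list they scored highest for: granule, molecular, white matter or projection neuron. Each class was compared with the mean of the other 3 over 18829 genes. *Hapln2* marked white matter, *Acan*, *Hapln4* and *Hapln1* marked the projection neuron class, and 6 members were lower in the granule class and 4 in the molecular class, the layers of the cerebellar cortex. The classes differ in their mix of cells and are not pure layers.

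In the projection neuron class (825 and 789 spots) 7 of 10 members were called, beside 39.2% of all genes. The 6 that rose, beside 21.4% of genes that rose, were led by *Acan*, at 39.5 and 34.4 CPM (2.12, SE 0.174, adjusted p = 2.65e-06). *Hapln4* had 376 and 249 CPM (1.20, adjusted p = 0.00039). *Hapln2* (0.996), *Hapln1* (0.95), *Ncan* (0.90) and *Bcan* (0.65) completed the group. Aggrecan, Hapln1 and Hapln4 were named above, with tenascin-R, among the components of perineuronal nets. *Tnr* was at 95.8 and 121 CPM in this class and was not called (-0.053), although it was called lower with library size as the only scaling (-0.33, adjusted p = 0.029). *Hapln2* lost its call there with that scaling (0.70, adjusted p = 0.16) and without the section block (0.98, adjusted p = 0.20). *Has2* was lower, at 3.47 and 3.27 CPM (-0.81, adjusted p = 0.045), beside 17.8% of genes that fell. It was read there with 26 and 24 UMIs. Its call was lost with DESeq2 (-0.77) and without the section block (-0.82). It was lost as well with a minimum of 1000 UMIs (-0.78) and with a margin of 0.5 between class scores (-1.01).

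In the white matter class (719 and 677 spots) 4 members rose, beside 9.98% of all genes called, 6.3% that rose and 3.69% that fell. *Hapln2* had 426 and 325 CPM (1.82, SE 0.253, adjusted p = 0.0093), a call lost with library size as the only scaling (1.74, adjusted p = 0.059) and without the section block (1.75, adjusted p = 0.13). *Vcan* had 84.4 and 75.4 CPM, its highest level of the 4 classes in both sections (0.81, adjusted p = 0.0051). In CPM of library size it also fell with distance, from 133 and 77.1 at steps 4 to 6 outside the mass to 36.3 and 33.5 beyond 25 steps. Macrophage and microglia genes were highest in this class as well, at 3313 and 3051 CPM. The classes were not matched for distance from the mass, and its part in the level of *Vcan* was not tested. *Ncan* (0.76) and *Acan* (0.68) were higher as well, the latter turning to -0.19 when only spots with a clear class were kept.

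In the molecular class (519 and 629 spots) 4 members fell, beside 16.8% of genes called, 9.73% that fell and 7.03% that rose. *Hapln2* dropped to 80.7 and 22.7 CPM (-2.24) and *Acan* to 5.85 and 2.65 CPM (-2.15), with *Ncan* (-1.09) and *Hapln1* (-0.80). *Bcan* took opposite directions in the sections, at 282 CPM in section 1 and 399 CPM in section 2 (-0.018), and was higher by 0.67 (adjusted p = 0.00298) when only spots with a clear class were kept. In the granule class (272 and 669 spots) 6 members fell, beside 24.7% called and 13.8% that fell. *Bcan* led them, at 231 and 192 CPM (-0.96), followed by *Hapln4* (-0.77), *Acan* (-0.65), *Ncan* (-0.57), *Vcan* (-0.54) and *Tnr* (-0.49). Only *Bcan* and *Hapln4* of these 6 kept an adjusted p below 0.05 with library size as the only scaling.

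**Figure D4:**
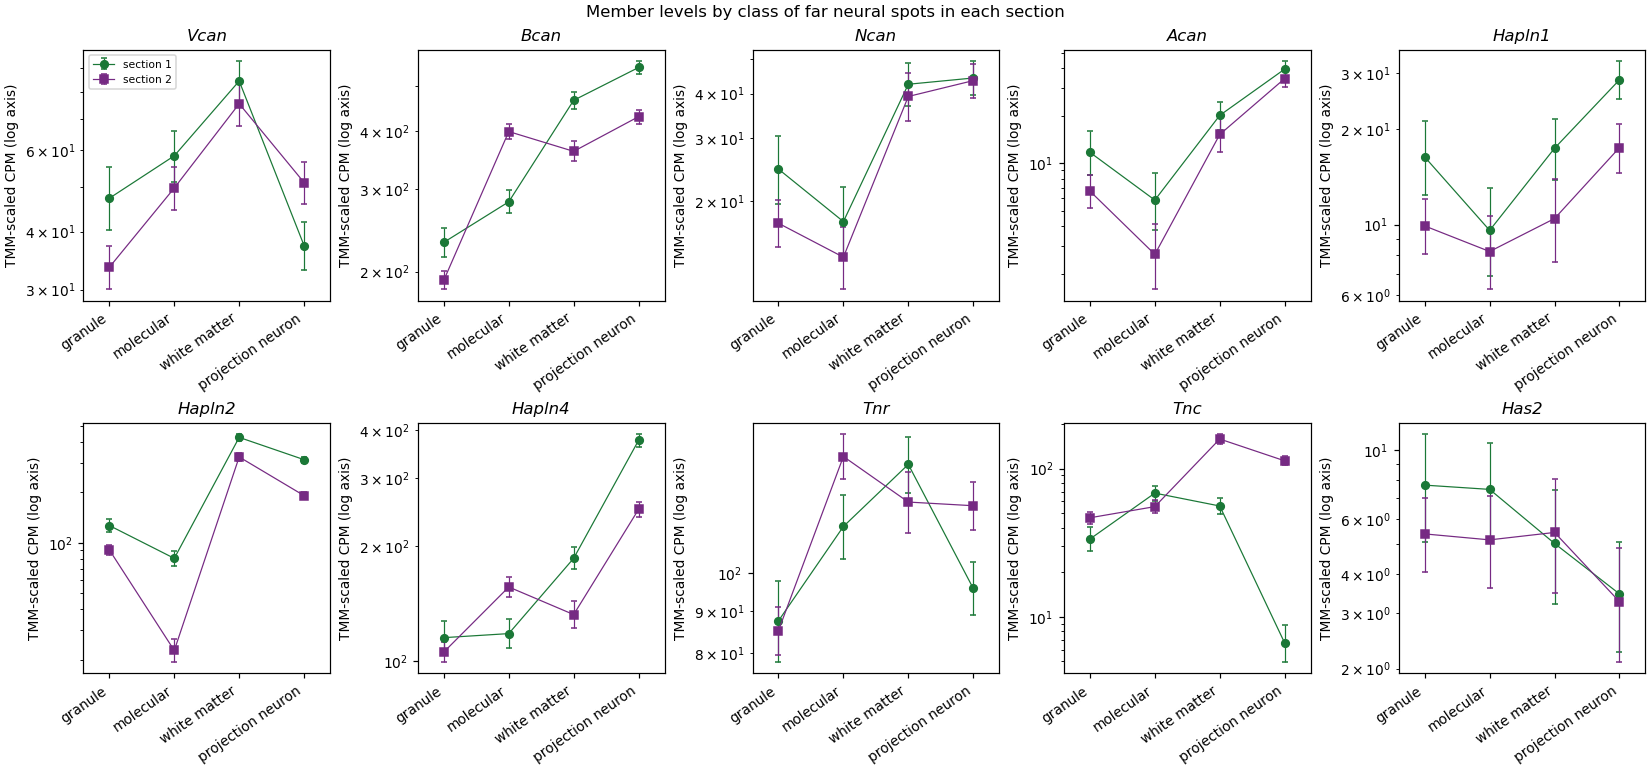
Levels of the 10 members as TMM-scaled CPM (log axes) in 4 classes of far neural spots, with a line per section and 95% counting intervals. *Acan* and *Hapln4* are highest in the projection neuron class and *Hapln2* in the white matter class in both sections, and *Tnc* of the projection neuron class is at 6.66 CPM in section 1 and 113 CPM in section 2.

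*Tnc* was called in none of the classes, and it was highest in the molecular class of section 1 and in the white matter class of section 2. It was at 6.66 CPM in the projection neuron class of section 1 and at 113 CPM in that of section 2, where the 10 epithelial genes summed to 18.0 and 419.6 CPM. In the white matter class it was at 55.9 and 158 CPM, with epithelial sums of 32.2 and 501 CPM.

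Across spots of a region, members followed different cell lists, given as Spearman's rho over spots that share a library, their depth and their neighbors. *Hapln2* followed the oligodendrocyte genes in far neural spots, with rho of 0.54 over 2335 spots in section 1 and 0.61 over 2764 in section 2. *Hapln4* followed the neuron genes (0.50 in both). *Tnc* followed the epithelial genes at the brain-side edge of section 2 (0.81 over 357 spots) and the fibroblast genes at that of section 1 (0.40 over 190). Inside the mass these links were weak or absent. With the epithelial genes *Tnc* had a rho of 0.20 over 821 spots in section 2, below the 0.35 with astrocyte genes. With the fibroblast genes it had 8.2e-05 over 781 spots in section 1. In the mass of section 1 *Tnc* ran with the endothelial and pericyte genes (0.68 over 781 spots), but also with oligodendrocyte (0.58), astrocyte (0.49) and neuron genes (0.44). *Hapln1* ran against the astrocyte genes there (-0.50). *Tnr* at the brain-side edge of section 2 ran with the oligodendrocyte precursor genes (0.49). That rho was 0.28 at the brain-side edge of section 1 and 0.033 over the far neural spots of section 2, where *Tnr* and the oligodendrocyte genes had a rho of -0.16.

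The genes most like each member were taken by Pearson's r of log2(CPM + 1) over 14 libraries, namely the core, both edges and the 4 neural classes of both sections, which share spots' neighbors and 2 animals. *Hapln2* was most like *Mbp* (0.99), *Myrf* (0.99) and *Ermn* (0.99), genes of myelin and of its regulator. *Tnc* was most like *Junb* (0.99), an AP-1 subunit, *Cd44* (0.99), the main hyaluronan receptor, and *Pdlim4* (0.99). *Bcan* was most like *Abat*, *Kif1a* and *Slc24a2* (0.99 each), *Tnr* most like *Plpp3* and *Sox2* (0.99 each), and *Vcan* most like *Ctsc* (0.98). *Has2* was most like the collagen gene *Col5a3* (0.96). The values of *Acan* (*Ctnnbip1*, 0.95), *Hapln1* (*Grb10*, 0.95) and *Ncan* (*Olfm2*, 0.90) were lower. Between members, *Bcan* was closest to *Tnr* (0.95), *Hapln4* (0.91) and *Hapln2* (0.90), and *Hapln4* was the most opposed to *Tnc* (-0.92).

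The wider pathway was read from 6 lists of 67 genes in all, in the core against far neural tissue. Of these, 20 rose (29.9%) and 16 fell (23.9%), beside 16.2% and 18.1% of all genes tested and 34.3% called in either direction. Of 11 hyaluronan receptors and binders, 3 rose and 3 fell. *Cd44* had 389.9 and 1065 CPM in the core and 61.8 and 111 CPM in far neural tissue (2.98, adjusted p = 0.0026). *Hmmr*, a receptor that also serves mitosis, rose by 2.74, and the scavenger receptor *Stab1* by 1.68. *Itih3* (-3.92), *Tnfaip6* (-2.86) and *Itih5* (-2.49), whose products are, or transfer, the heavy chains that coat hyaluronan, were lower. Of 7 other genes of hyaluronan synthesis and breakdown, the hyaluronan-degrading *Cemip2* (1.73) and *Hyal2* (1.29) rose and the synthase *Has3* fell (-1.10).

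Of 6 proteases that cut lecticans, *Adamts5* (3.06) and *Adamts1* (1.76) rose and *Adamts20* fell (-2.14). *Adamts5* had 47.8 and 225 CPM in the core and 9.50 and 15.3 CPM in far neural tissue. Of 17 genes of chondroitin sulfate synthesis, 5 rose, among them the epimerase *Dse* (2.78), *Chst13* (2.25) and the polymerase *Chsy1* (1.79), and 2 fell, *Chsy3* (-1.66) and the initiating enzyme *Xylt1* (-1.47). Of 10 other proteoglycans and tenascins, the small proteoglycan *Bgn* rose (3.25) and 6 fell, led by the testicans *Spock1* (-6.28), *Spock2* (-5.94) and *Spock3* (-5.63). Taken by section, the rise was larger in section 1 for *Dse* (4.05 and 1.18), *Chst13* (2.59 and 0.95), *Chsy1* (2.50 and 1.07) and *Bgn* (4.27 and 1.76). It was larger in section 2 for *Adamts5* (2.27 and 3.84) and *Adamts1* (1.40 and 2.08).

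Of 17 partners and receptors, 7 rose and 4 fell. The matrix protein *Fbln2* (3.35), the integrin chain *Itgb1* (3.06) and the chain *Itga8* (2.59), which with *Itgb1* forms a receptor for tenascin-C, were higher. In sections 1 and 2 the rise was 4.91 and 2.11 for *Fbln2*, 3.23 and 2.89 for *Itgb1*, and 2.27 and 2.70 for *Itga8*. *Nfasc* (-4.62) and *Cntn1* (-4.47), axonal proteins that bind *Tnr*, and the receptor phosphatase *Ptprz1* (-3.82), which binds tenascins, were lower. Over the 6 lists the median log2 difference ran from -2.91 for the other proteoglycans and tenascins to 0.89 for the partners, against -0.15 over all genes. On the brain side of the border 5 of the 67 genes were called (7.46%, beside 6.51% of all genes), 2 of the 11 receptors and binders and 3 of the 17 partners, and these 5 were higher than in far neural tissue: *Cd44* (2.64, adjusted p = 0.027), *Hmmr* (2.07), *Itgb3* (2.01), *Itgb1* (1.93) and *Tlr4* (1.74).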

How the data were processed

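The Visium CytAssist assay for fixed tissue was run on 1 section of each of 2 mice. The authors detected tissue and counted barcodes with Space Ranger 2.1.1 on build mm10, and deposited, for each gene in each spot, the raw UMI count with no normalization. Their spot clusters and marked regions were not used here. Spots with under 500 UMIs or under 10 genes were left out (91 and 18), as were 9 and 57 non-neural spots in small fields. The limit on the neural share, on the log2 scale after adding 1 UMI, was set by Otsu's method in each section. Barcodes mark array positions, so that 3096 are common to both sections without any shared cell.

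The 8 summed libraries held between 3556505 and 30633996 UMIs, and their TMM factors ran from 0.864 to 1.18. At this depth counting error is small for all but rare transcripts, and the 2 sections set the precision. Intervals are exact Poisson bounds (95%) for counting error only. Fits used edgeR 4.0.16 in R 4.3.3 (filterByExpr, glmQLFit with robust estimation, glmQLFTest, 3 residual degrees of freedom). Libraries were paired by section, since the regions of each came from the same mouse. The common dispersion was 0.0996 with the section block and 0.199 without it. The test was first run on simulated data. Changes within 1 section were taken after adding 0.5 CPM.

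All 10 members are named in every comparison, with the 3 genes most like each (some left out where r was lower) and, per pathway list and direction, up to 3 called genes of the largest change. The members, lists and rules were chosen with earlier results of these data known. Alternatives were DESeq2 1.42.0, RLE factors, library size as the only scaling, no filter, no section block, each section alone, a mask from neuron genes or a fixed limit, the largest field of mass, edges of 2 or 5 steps, the first step left out, a minimum of 1000 UMIs, a margin of 0.5 between class scores, UMIs per spot, and, added after seeing the data, far neural spots within 10 steps. Spot statistics and plots used Python 3.11.15 (pandas 2.3.3, numpy 2.4.6, matplotlib 3.10.9, scipy 1.17.1). Marker lists lack probes for 4 genes.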

Additional observations from a re-analysis of the deposited data

How the results depend on the processing

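Of the 7 members called between core and far neural tissue, 4 were called against far neural spots within 10 steps of the mass, an alternative chosen after seeing the data, as were 3 of 5 at the edges and 0 of 3 on the brain side. On the brain side DESeq2 called 5, a mask from neuron genes 1, and leaving out the first step 0. The edges against the core, with 0 calls, gave 4 with DESeq2, 2 with the mask from neuron genes, and 1 each with library size only, the fixed limit, edges of 5 steps and near far-neural spots. Without the replicate block, which pairs regions of a section, calls fell to 0 on the brain side, 1 of 6 in the granule class, 2 of 4 in the molecular class and 2 of 4 in the white matter class. Library size as the only scaling left 2 in the granule class and 2 in the white matter class. No called value changed direction when either section was left out. With 2 sections this is no separate check, since a call is hardly reached unless both sections point the same way. The values that turned sign were all uncalled in the main setting except *Acan* in the white matter class, and the cause was not tested. Edges against the core gave *Tnc* 0.094 (library size) and 0.13 (fixed limit) and *Vcan* 0.13, 0.026, 0.0073 (largest field), 0.0041 (edges of 2 steps), 0.019 (5 steps) and 0.0029 (near far-neural spots). *Hapln1* in the core was 0.27 without the block and 0.40 against near spots, *Acan* 0.89 and 0.73 at the edges and 0.46 and 0.31 on the brain side, and *Tnr* on the brain side 0.23 (neuron mask), 0.12 (5 steps) and 0.22 (first step out). In the classes, library size gave *Hapln1* 0.10 (granule), *Bcan* 0.10 (molecular) and *Has2* -0.042 (white matter), no block *Tnc* -0.045 (molecular) and *Hapln1* 0.019 (white matter), and a minimum of 1000 UMIs *Hapln1* 0.018 (white matter). The class margin gave *Bcan* 0.67, *Hapln4* 0.19 and *Has2* -0.72 (molecular) and *Acan* -0.19 (white matter). Members read at under 5 CPM in a library rest on few counts. In the core of section 2 these were *Hapln1* (16 UMIs), *Hapln4* (21), *Hapln2* (25), *Tnr* (28), *Ncan* (38) and *Bcan* (40).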
